A study of Rattus norvegicus with 6 samples.

Results

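Transcripts of Fc gamma receptors and macrophage markers were examined in the renal cortex of 6 rats. The set comprises 10 of the 15645 genes named on the array, represented by 20 of 61537 non-control probes: the IgG receptors Fcgr1a, Fcgr2a and Fcgr2b, the signalling chains Fcer1g and Tyrobp, the growth factor receptor Csf1r, and the macrophage markers Cd68, Lyz2, Mrc1 and Cd163. The genes were selected on their processed signals in DNPT rats against vehicle rats, the same measurement and contrast described here. Their values, and the limma counts given for them below, are therefore a description, and no test result is read as evidence about them. A probe belonged to the set when the RefSeq accession printed for it on the array matched one of these genes. The DNPT group was 3 male Sprague-Dawley rats of the Crl:CD(SD) stock, bought at 5 weeks of age, that were dosed over 4 weeks with 200 mg/kg/day of the N-nitroso compound N,N'-dinitrosopentamethylenetetramine (DNPT). The vehicle group was 3 rats of the same stock, sex and purchase age that received corn oil for 4 weeks, and the labels name no other treatment or allele in either group.

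Fc gamma receptors bind the constant part of IgG, and on macrophages they couple antibody-coated particles to phagocytosis and to cytokine release. Activating receptors signal through a partner chain that carries an immunoreceptor tyrosine-based activation motif, whereas the inhibitory receptor carries its own inhibitory motif and sets a threshold on the same cell. Resident macrophages of the kidney lie between the tubules, depend on signals through Csf1r, and take up immune complexes and small particles that leave the capillaries.

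Each sample was hybridised to a 1-colour array, and a signal is given as log2 of the processed intensity minus the log2 of that array's 75th percentile, so that 0 marks a probe as bright as the upper quartile of its array. A change is the DNPT mean minus the vehicle mean on this scale, with its standard error (SE) from limma, and group means are ± SD over n = 3 rats. Between 42116 and 43402 probes were well above background on the DNPT arrays and between 44730 and 45167 on the vehicle arrays, and precision is limited by how few arrays there are. DNPT replicate 1 and the 3 vehicle replicates lay on slide 1, while DNPT replicates 2 and 3 lay on slide 2. DNPT replicate 3 stood apart in 5 hepatocyte markers, whose summed signal relative to the 75th percentile was 1.65, 0.795 and 24.3 in DNPT replicates 1, 2 and 3 and 0.890, 3.51 and 1.11 in vehicle replicates 1, 2 and 3. Of the kidney cortex markers, 10 of 10 were measured, with a summed signal of 1472 to 1733 in DNPT rats and 1365 to 1571 in vehicle rats. Because whole cortex was measured, fewer cells of a type and less RNA per cell cannot be told apart.

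Of the 10 genes, 9 passed the filter on dim probes (well above background on at least 3 of 6 arrays), and all 9 had a lower mean in DNPT rats than in vehicle rats. The median change over these 9 genes was -0.26, against 0.01 over all 34915 features tested, of which 47.7% had a negative change. The changes ranged from -0.61 for Fcgr2b to -0.05 for Mrc1. All 16 measured probes of the set also had negative changes, and in 4 of them every DNPT rat lay below every vehicle rat. In 2 of the 9 genes, Fcgr2b and Csf1r, the 3 DNPT values all lay below the 3 vehicle values, a pattern found in 8.18% of all features, with the opposite pattern in 12.1%. The same 2 genes had an unadjusted limma p under 0.05 on the lower side, where 6.07% of all features did, with 6.02% on the higher side. None of the 9 genes had an adjusted p under 0.05, as was true of every feature in this comparison: limma with Benjamini-Hochberg adjustment called 0 of 34915 features (0.00%), while 4219 had an unadjusted p under 0.05. Since the genes were chosen on this contrast, nothing is read from these shares.

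**Figure D1:**
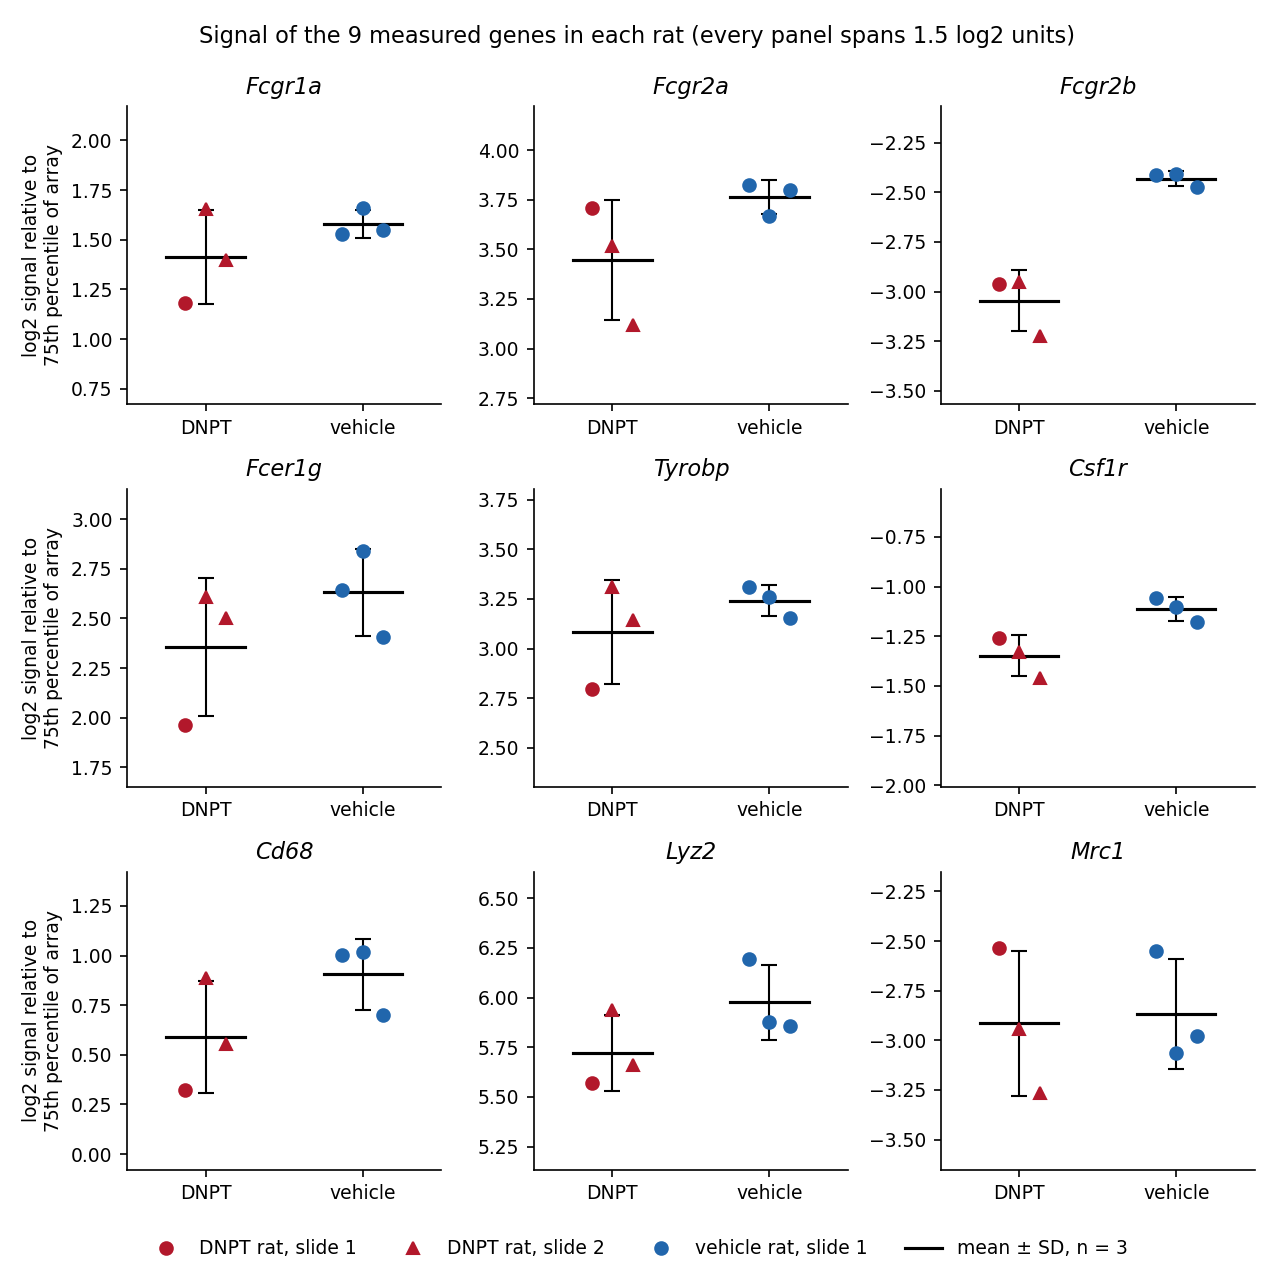
Signal of the 9 measured genes in each rat, with DNPT on the left and vehicle on the right of each panel; the y axis is log2 signal relative to the 75th percentile of the array, circles are rats on slide 1, triangles rats on slide 2, and bars are the mean ± SD of 3 rats. The groups separate in Fcgr2b and Csf1r and overlap in the other 7 panels.

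Promoters of some of these genes are printed because PU.1, the transcription factor encoded by Spi1, is known to bind myeloid promoters. That of Csf1r in mouse and human is among them, and PU.1 binds through a core of the letters GAGGAA. RefSeq promoter sequences of assembly GRCr8 were at hand for 6 of the 10 genes, Fcgr2a, Cd68, Cd163, Csf1r, Mrc1 and Lyz2. Within the 250 bases before the start site, GAGGAA or its reverse complement TTCCTC occurred in 5 of the 6, all but Cd163, and in 23.2% of all 27457 promoters of the same length. A match is a description of letters and not a binding site, and no other motif was searched. The sequences below read 5' to 3' on the strand of the gene and end at the base before the start site, with each match in capitals. Fcgr2a is printed over all 250 bases, and Csf1r, Cd68 and Lyz2 over the part nearest the start site only. A further Csf1r match, at -229, lies outside its printed part. Mrc1, with 2 matches, and Cd163, with 0, are not printed. Fcgr2a lies on the minus strand (chr13:85828686-85828935) and Csf1r on the plus strand (chr18:56834279-56834378). Cd68 (chr10:54882442-54882541) and Lyz2 (chr7:54798012-54798111) lie on the minus strand.
Fcgr2a: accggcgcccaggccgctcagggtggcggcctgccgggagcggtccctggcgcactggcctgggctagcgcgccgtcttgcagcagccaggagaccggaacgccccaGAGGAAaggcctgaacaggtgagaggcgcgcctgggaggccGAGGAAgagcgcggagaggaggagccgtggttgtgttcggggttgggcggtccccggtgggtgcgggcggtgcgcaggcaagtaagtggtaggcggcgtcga
Csf1r: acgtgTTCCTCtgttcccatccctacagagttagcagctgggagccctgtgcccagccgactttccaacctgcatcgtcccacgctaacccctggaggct
Cd68: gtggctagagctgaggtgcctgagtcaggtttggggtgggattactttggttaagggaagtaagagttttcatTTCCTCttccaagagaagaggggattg
Lyz2: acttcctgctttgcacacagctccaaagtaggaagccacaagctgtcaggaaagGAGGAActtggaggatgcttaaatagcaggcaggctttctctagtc

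Among the receptors for IgG, the inhibitory receptor Fcgr2b had the largest change of the 9 genes. Its brighter probe had signals of -2.96, -2.95 and -3.22 in DNPT replicates 1, 2 and 3, against -2.41, -2.41 and -2.47 in vehicle replicates 1, 2 and 3. The 3 vehicle rats lay close together and the 3 DNPT rats all lay well below them. The means were -3.05 ± 0.15 in DNPT rats and -2.43 ± 0.04 in vehicle rats, a change of -0.61 (SE 0.10) that put the DNPT mean at 65.3% of the vehicle mean. The second Fcgr2b probe had signals of -3.12, -3.02 and -2.76 in DNPT rats and -2.32, -2.85 and -2.59 in vehicle rats. On that probe the groups overlapped, since DNPT replicate 3 was brighter than vehicle replicate 2, and the change was -0.38 (SE 0.18).

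Fcgr2a, a low-affinity receptor for IgG, had signals of 3.71, 3.51 and 3.12 in DNPT replicates 1, 2 and 3, against 3.82, 3.67 and 3.80 in the vehicle rats. DNPT replicate 1 lay within the range of the vehicle rats and the other DNPT rats lay below it. The means were 3.45 ± 0.30 in DNPT rats and 3.76 ± 0.08 in vehicle rats, with a change of -0.32 (SE 0.17). A dimmer Fcgr2a probe read -2.85, -2.86 and -3.36 in DNPT rats and -2.53, -2.62 and -2.60 in vehicle rats, without overlap, with a change of -0.44 (SE 0.16). Fcgr2a has a close copy beside it in the genome, Fcgr2al1, so the split of signal between the copies is uncertain.

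Fcgr1a, the high-affinity receptor for IgG, had signals of 1.18, 1.66 and 1.40 in DNPT rats and 1.53, 1.66 and 1.55 in vehicle rats. DNPT replicate 2 was as bright as the brightest vehicle rat, whereas DNPT replicates 1 and 3 lay below all of them. The means were 1.41 ± 0.24 in DNPT rats and 1.58 ± 0.07 in vehicle rats, with a change of -0.17 (SE 0.14). Its other probe had a change of -0.16 (SE 0.16) and overlapping groups.

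Fcer1g encodes the common gamma chain through which Fcgr1a and other activating Fc receptors signal. Its brighter probe had signals of 1.96, 2.61 and 2.50 in DNPT rats, against 2.64, 2.84 and 2.41 in vehicle rats. DNPT replicate 1 was the lowest of the 6 rats and the other DNPT rats lay inside the vehicle range. The means were 2.36 ± 0.35 in DNPT rats and 2.63 ± 0.22 in vehicle rats, with a change of -0.27 (SE 0.21). The other probe, with 1.58, 1.88 and 1.85 in DNPT rats and 2.07, 2.25 and 1.92 in vehicle rats, had a change of -0.31 (SE 0.14) and no overlap, though DNPT replicates 2 and 3 came near vehicle replicate 3.

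Tyrobp encodes DAP12, the adaptor that pairs with TREM receptors and related receptors of myeloid and NK cells. Its single probe had signals of 2.80, 3.31 and 3.15 in DNPT rats and 3.31, 3.26 and 3.15 in vehicle rats. DNPT replicate 1 lay well below the other 5 rats, and DNPT replicate 2 was the brightest of the 6 rats by a small margin. The means were 3.08 ± 0.26 in DNPT rats and 3.24 ± 0.08 in vehicle rats, with a change of -0.16 (SE 0.15).

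Csf1r is the receptor for Csf1 and Il34, on which tissue macrophages depend for survival, and its promoter is printed above with a TTCCTC match. It had signals of -1.26, -1.33 and -1.46 in DNPT rats, against -1.06, -1.10 and -1.18 in vehicle rats. Every DNPT rat lay below every vehicle rat, by a margin smaller than that of Fcgr2b. The means were -1.35 ± 0.10 in DNPT rats and -1.11 ± 0.06 in vehicle rats; the change of -0.23 (SE 0.09) put the DNPT mean at 85.0% of the vehicle mean. The second Csf1r probe had a change of -0.22 (SE 0.18) with overlapping groups, its signals being -1.29, -1.44 and -1.80 in DNPT rats and -1.16, -1.19 and -1.51 in vehicle rats.

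Cd68, a glycoprotein of macrophage lysosomes, had signals of 0.33, 0.89 and 0.55 in DNPT rats and 1.00, 1.02 and 0.70 in vehicle rats. DNPT replicates 1 and 3 lay below all vehicle rats and DNPT replicate 2 lay among them. The means were 0.59 ± 0.28 in DNPT rats and 0.91 ± 0.18 in vehicle rats, with a change of -0.32 (SE 0.17), and the other probe had a change of -0.29 (SE 0.19). Lyz2, the lysozyme of myeloid cells, had signals of 5.57, 5.94 and 5.66 in DNPT rats, against 6.20, 5.88 and 5.86 in vehicle rats. The arrangement was that of Cd68, with DNPT replicate 2 inside the vehicle range and the other DNPT rats below it. The Lyz2 means were 5.72 ± 0.19 in DNPT rats and 5.98 ± 0.19 in vehicle rats, with a change of -0.26 (SE 0.15), and its second probe had a change of -0.11 (SE 0.15).

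Mrc1, the mannose receptor, had signals of -2.54, -2.94 and -3.27 in DNPT rats and -2.55, -3.07 and -2.98 in vehicle rats. The DNPT rats spanned the whole vehicle range, with the brightest and the dimmest of the 6 rats among them. The means were -2.91 ± 0.37 in DNPT rats and -2.87 ± 0.28 in vehicle rats; the change of -0.05 (SE 0.23) was smaller than the spread within either group. Its sign turned with several processing choices: the change was 0.33 on slide 1 alone, 0.13 without DNPT replicate 3, 0.11 without vehicle replicate 1 and 0.019 after normexp background correction. A second Mrc1 probe was not well above background on any array. Cd163, the scavenger receptor for haemoglobin bound to haptoglobin, was not tested, since 2 of its 3 probes were not well above background on any array and the remaining one was so in vehicle replicate 1 only. That probe had processed intensities of 5.41, 4.77 and 15.2 in DNPT rats, against 24.4 in vehicle replicate 1 and as little as 3.56 in vehicle replicate 3, and no fold is given at this level.

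**Figure D2:**
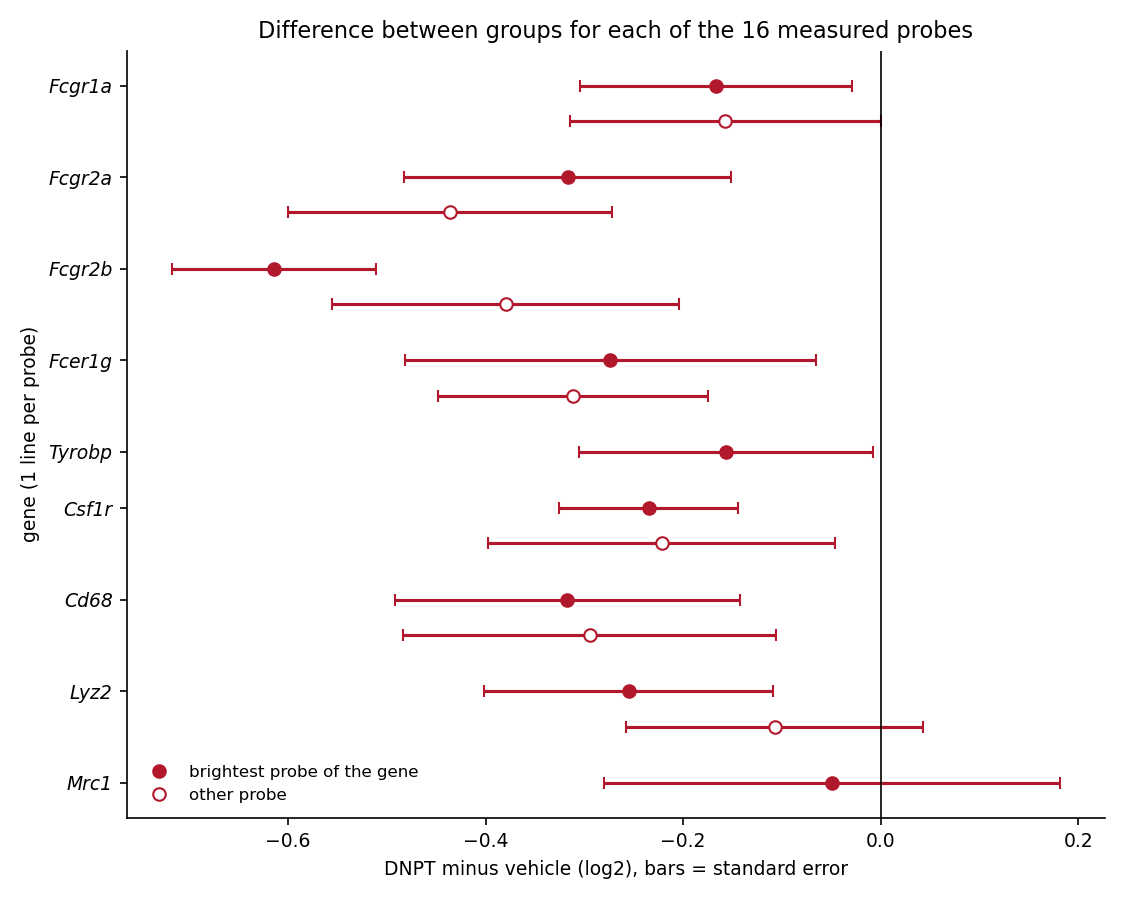
Change (DNPT minus vehicle, log2) of each of the 16 measured probes, grouped by gene, with bars for the standard error; filled points are the brightest probe of a gene and open points any other probe. All 16 points lie left of 0, from Fcgr2b at -0.61 to Mrc1 at -0.05, and the probes of Fcgr2b, at -0.61 and -0.38, lie further apart than those of any other gene.

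The rats that were lowest differed from gene to gene. DNPT replicate 1 was the lowest of the 6 rats for 5 genes, Fcgr1a, Fcer1g, Tyrobp, Cd68 and Lyz2, and DNPT replicate 3 was the lowest for the other 4, Fcgr2a, Fcgr2b, Csf1r and Mrc1. DNPT replicate 2 was the lowest for 0 genes. Set against the vehicle mean, the median over the 9 genes was -0.41 in DNPT replicate 1, -0.04 in DNPT replicate 2 and -0.35 in DNPT replicate 3. DNPT replicates 1, 2 and 3 lay below all vehicle rats for 7, 3 and 8 genes. For DNPT replicate 2 those 3 genes were Fcgr2a, Fcgr2b and Csf1r. Over all 34915 features, DNPT replicate 1 lay outside the vehicle range, above or below it, in 19096. The share on the lower side was not taken for single rats, so nothing is read from the counts of genes. Fcgr2b differed from the vehicle mean by -0.53, -0.52 and -0.79 in DNPT replicates 1, 2 and 3 (slide 2 held no vehicle rat, so slide and group cannot be told apart for the last 2 values). Fcer1g, by contrast, differed by -0.67, -0.02 and -0.13 on its brighter probe, and Tyrobp by -0.44, 0.07 and -0.095. On these probes the mean changes rest largely on DNPT replicate 1. On the other Fcer1g probe the differences were -0.51, -0.20 and -0.23. Fcgr2a differed most in DNPT replicate 3, at -0.06, -0.25 and -0.65.

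**Figure D3:**
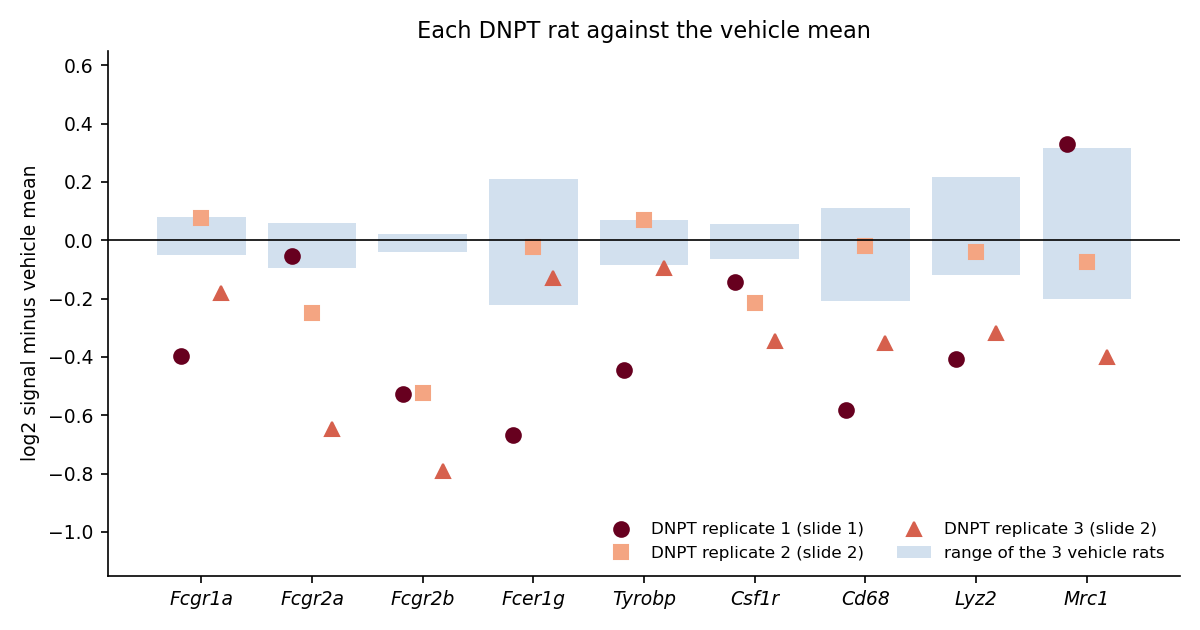
Each DNPT rat's log2 signal minus the vehicle mean for the 9 measured genes; symbols mark the DNPT replicates and shaded boxes the range of the 3 vehicle rats. DNPT replicate 2 lies below the boxes for Fcgr2a, Fcgr2b and Csf1r only, while DNPT replicate 1 is the lowest rat for Fcgr1a, Fcer1g, Tyrobp, Cd68 and Lyz2.

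Without DNPT replicate 1 the changes were larger in size for the 4 genes lowest in DNPT replicate 3: -0.66 (SE 0.11) for Fcgr2b, -0.45 for Fcgr2a, -0.28 for Csf1r and -0.24 for Mrc1. For the other 5 they were smaller, at -0.05 for Fcgr1a, -0.08 for Fcer1g, -0.01 for Tyrobp, -0.19 for Cd68 and -0.18 for Lyz2. In that comparison of 2 DNPT rats, both on slide 2, with 3 vehicle rats, limma called 619 features at an adjusted p under 0.05, none of the 9 genes among them. Within slide 1, where DNPT replicate 1 alone was set against the vehicle rats, the median over the 9 genes was the -0.41 given above, and 8 of 9 changes were negative. Leaving out DNPT replicate 3, the rat with the hepatocyte signal, gave -0.53 for Fcgr2b, -0.15 for Fcgr2a and -0.18 for Csf1r, with a median of -0.19 over the 9 genes.

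The ratio of other receptors and chains to Fcgr2b was followed within each array, where a ratio shows unequal change and not which gene moved. With the brighter Fcgr2b probe, log2 of Csf1r over Fcgr2b was 1.70, 1.63 and 1.76 in DNPT rats, against 1.35, 1.31 and 1.30 in vehicle rats, a difference of 0.38. The ratios of Fcgr1a, Fcgr2a and Tyrobp to Fcgr2b were likewise higher in every DNPT rat than in any vehicle rat, by 0.45, 0.30 and 0.46 on average. That of Fcer1g was 0.34 higher on average and overlapped. With the other Fcgr2b probe the differences were 0.21 for Fcgr1a, 0.06 for Fcgr2a, 0.11 for Fcer1g, 0.22 for Tyrobp and 0.14 for Csf1r, and all of them overlapped between groups. The separation thus depended on which probe stood for Fcgr2b.

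Fcgr2b and Fcgr2a belong to a cluster on rat chromosome 13 in which the RefSeq order is Fcrlb, Fcrla, Fcgr2b, Fcgr3a, Fcgr2a and Fcgr2al1. Fcgr2al1 had signals of 0.93, 1.05 and 0.64 in DNPT rats and 1.34, 1.13 and 1.19 in vehicle rats. All DNPT rats lay below all vehicle rats there, with a change of -0.35 (SE 0.13, limma adjusted p = 0.404), close to the -0.32 of Fcgr2a, its near copy. Fcgr3a, another low-affinity receptor for IgG, had signals of -1.58, -0.08 and -0.61 in DNPT rats and 0.00, -0.03 and -0.49 in vehicle rats. DNPT replicate 1 was far below the rest and the groups overlapped, with a change of -0.58 (SE 0.40, limma adjusted p = 0.541). Fcrlb, an Fc receptor-like protein known from B cells, had a change of the opposite sign to that of Fcgr2b, with signals of -3.80, -3.90 and -4.21 in DNPT rats, against -5.61, -5.40 and -5.06 in vehicle rats. Every DNPT rat lay above every vehicle rat, with a change of 1.38 (SE 0.18) that did not pass adjustment over all features (limma adjusted p = 0.225). Fcrlb was the dimmest of these cluster genes, though its probe was well above background on all 6 arrays. Fcrla, between Fcrlb and Fcgr2b, had a change of -0.06 (SE 0.17) and overlapping groups.

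**Figure D4:**
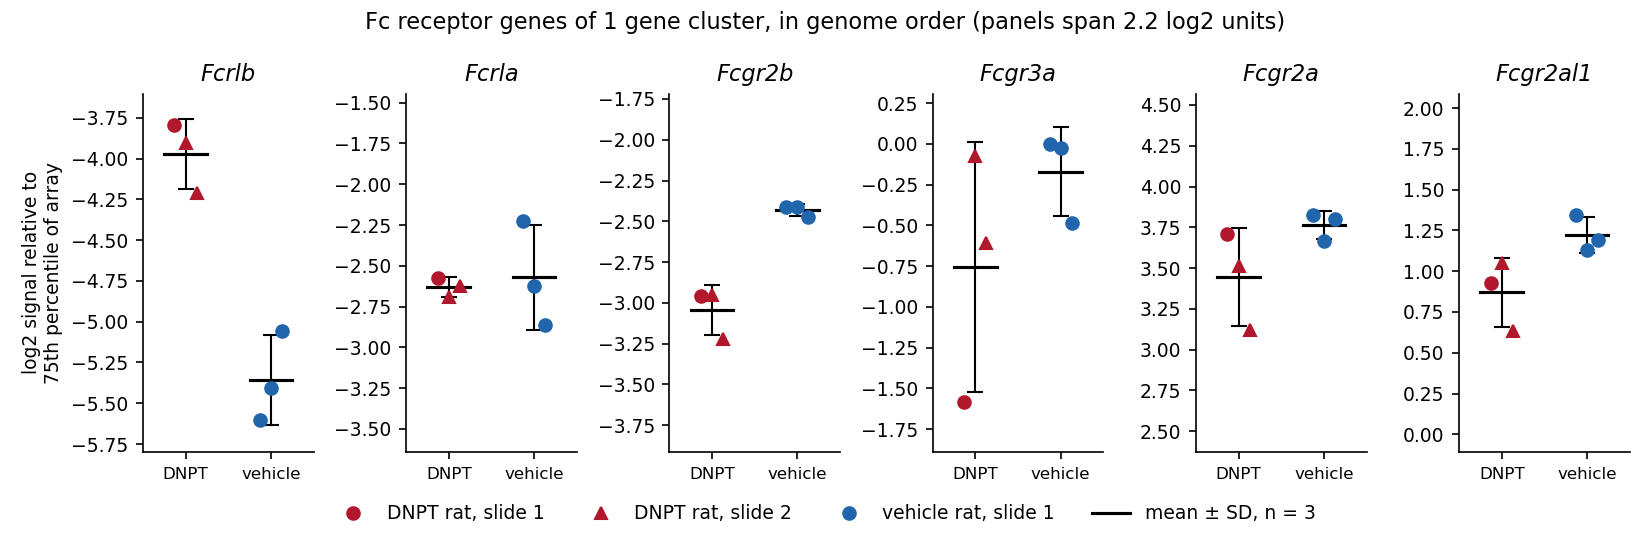
Signal of 6 Fc receptor genes in their order along rat chromosome 13, with DNPT left and vehicle right in each panel; the y axis is log2 signal relative to the 75th percentile of the array, and bars are the mean ± SD of 3 rats. DNPT rats lie above vehicle rats in Fcrlb, below them in Fcgr2b and Fcgr2al1, and overlap with them in Fcrla, Fcgr3a and Fcgr2a.

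Among 13 other immunoglobulin-binding receptors, 11 were on the array and 9 were measured, of which 3 had negative changes and 6 positive, with a median of 0.06. On the higher side, where 6.02% of all features had an unadjusted limma p under 0.05, 1 of these genes did, Fcrlb. On the lower side, where 6.07% of all features did, 0 of these genes did. The 2 with the largest changes were Fcrlb and Fcgr3a, described above. The neonatal Fc receptor Fcgrt, named after its values were seen, had a change of 0.00 (SE 0.09).

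Of 20 genes of Fc receptor signalling, 18 were measured, 14 of them with negative changes, and the median was -0.12. It was -0.068 without DNPT replicate 1 and -0.20 without DNPT replicate 2. An unadjusted limma p under 0.05 was reached by 4 on the lower side and 0 on the higher side. Over all features the shares were 6.07% and 6.02%, and limma called 0 genes of the list after adjustment. The list was chosen with earlier results of these data known, so nothing is read from these counts. Vav1, a guanine nucleotide exchange factor downstream of Syk, had signals of -4.37, -4.09 and -4.26 in DNPT rats and -3.68, -3.82 and -3.88 in vehicle rats, with a change of -0.44 (SE 0.11, limma adjusted p = 0.353). Fgr, a Src family kinase of myeloid cells, had signals of -2.76, -2.50 and -2.53 in DNPT rats and -2.31, -2.01 and -2.18 in vehicle rats, with a change of -0.43 (SE 0.12, limma adjusted p = 0.369). Both genes had the pattern found in 8.18% of all features, lower in every DNPT rat than in any vehicle rat. So did 4 further genes of the list. Those 4, named after their values were seen, were Lcp2 (-0.40), Plcg2 (-0.31), Gab2 (-0.30) and Pik3cd (-0.14), which encode an adaptor, a phospholipase, a docking protein and a lipid kinase subunit. Syk, the kinase that binds phosphorylated Fcer1g and Tyrobp, had a change of -0.13 (SE 0.15), and the phosphatases that act with Fcgr2b, Inpp5d and Ptpn6, had changes of -0.11 (SE 0.09) and 0.07 (SE 0.12). These 3 were also chosen after their values were seen.

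Of 30 other macrophage and monocyte genes, 28 were on the array and 26 were measured, of which 22 had negative changes. The median over the 26 was -0.23, close to the -0.26 of the set, and the medians by DNPT replicate were -0.44, -0.03 and -0.23. It was -0.12 without DNPT replicate 1, and -0.22 over the genes well above background on all 6 arrays. The order of the DNPT rats, with replicate 1 lowest and replicate 2 nearest the vehicle mean, was that of the set, with which these genes share all 6 arrays. An unadjusted limma p under 0.05 was reached by 2 on the lower side, where 6.07% of all features had one. On the higher side 0 genes of the list had one, against 6.02% of all features. After adjustment with limma 0 passed. The 2 with the largest changes overlapped between groups: Msr1, a scavenger receptor, had a change of -0.55 (SE 0.47, limma adjusted p = 0.621), and Aif1, the calcium-binding protein Iba1, had one of -0.48 (SE 0.22, limma adjusted p = 0.430). Aif1 signals were 2.18, 2.89 and 2.14 in DNPT rats and 2.96, 2.84 and 2.84 in vehicle rats, again with DNPT replicate 2 among the vehicle rats. Spi1, which encodes PU.1 and is given here because of the promoters above, had signals of -4.20, -3.70 and -4.20 in DNPT rats and -3.53, -3.26 and -3.97 in vehicle rats, with a change of -0.45 (SE 0.23). The complement genes C1qa, C1qb and C1qc, made in the kidney largely by macrophages, had changes of -0.09, -0.06 and -0.14, and like Spi1 were named after their values were seen. Marco and Vsig4 were not well above background.

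Of the ligands of Csf1r, Csf1 had a change of 0.08 (SE 0.18) and Il34 one of 0.09 (SE 0.21). They belong to a list of 9 growth factors and receptors, of which 6 were measured, with a median of 0.08. In it 0 genes had an unadjusted limma p under 0.05, against 6.07% of all features on the lower side and 6.02% on the higher. The largest changes there were those of Csf3, the granulocyte colony-stimulating factor (-0.46, SE 0.33, limma adjusted p = 0.560), and its receptor Csf3r (-0.26, SE 0.28, limma adjusted p = 0.711). Of 9 receptors and adaptors related to Tyrobp, 5 were measured and 3 had negative changes, with a median of -0.17. On the lower side 1 of them, Klrk1, had such an unadjusted p, and 0 did on the higher side. Nothing is read from these counts. Klrk1, the NKG2D receptor of NK and T cells, had signals of 0.53, 0.27 and -0.07 in DNPT rats and 0.56, 0.70 and 0.74 in vehicle rats. The change was -0.43 (SE 0.17, limma adjusted p = 0.407). The groups did not overlap, as in 8.18% of all features on this side, though DNPT replicate 1 came near vehicle replicate 1. Siglec15, a sialic acid receptor that pairs with DAP12, had a change of -0.30 (SE 0.20, limma adjusted p = 0.533).

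**Figure D5:**
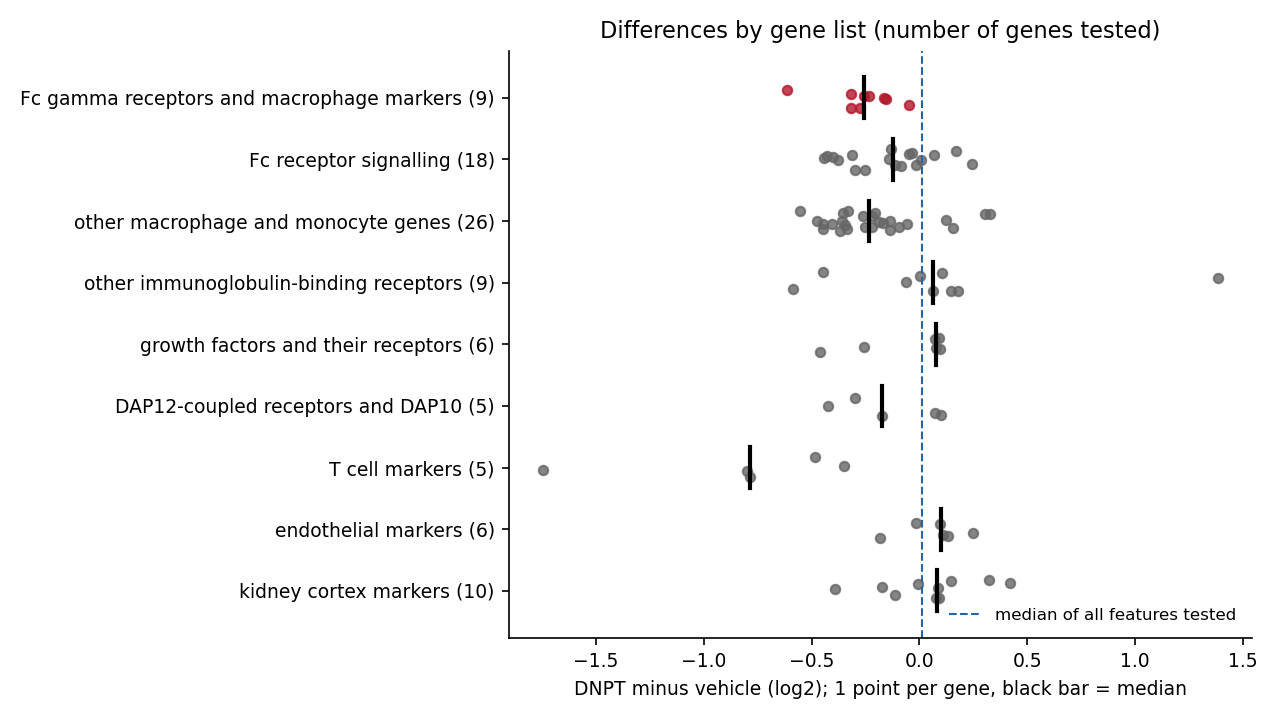
Change (DNPT minus vehicle, log2) of each measured gene by list, with 1 point per gene, a black bar at the median of the list, and a dashed line at the median of all features. Not every list is drawn: those of neutrophil, dendritic cell, mast cell and hepatocyte markers are left out. The 9 genes of the set have a median of -0.26, the 26 other macrophage and monocyte genes one of -0.23, and 2 of the 5 T cell points, Cd2 and Cd3e, belong to genes well above background on 0 and 1 DNPT arrays against 3 vehicle arrays.

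Some markers of other cells also differed between the groups. The summed linear signal of the set itself, relative to the 75th percentile, was 75.7 to 94.4 in DNPT rats and 91.5 to 109 in vehicle rats. Lyz2, the brightest gene of the set, dominates that sum, and the dim Fcgr2b, Csf1r and Mrc1 add little to it. Of 6 T cell markers 5 were measured, with Cd5 not well above background. Cd2 and Cd3e were well above background on 3 vehicle arrays but on 0 and 1 DNPT arrays, so they passed the filter through the vehicle rats. The other 3, well above background on all 6 arrays, were Cd3d, Cd3g and Cd8a, with changes of -0.35, -0.48 and -0.79. The summed signal of all 5, which Cd3d dominates, was 0.947 to 1.09 in DNPT rats and 1.29 to 1.47 in vehicle rats. Of 6 dendritic cell markers 4 were measured, 3 of them with negative changes. The median was -0.47, with changes from -1.06 for Clec9a to 0.60 for Cd74. Their summed signal was 49.98 to 67.5 in DNPT rats and 36.8 to 38.8 in vehicle rats. Cd74 dominates that sum, which therefore says little about the other 3. Of 6 neutrophil markers 3 were measured, all with positive changes and a median of 0.42, and their sum was 0.744 to 1.01 in DNPT rats and 0.508 to 0.783 in vehicle rats. Of 5 mast cell markers 2 were measured, with a sum of 0.328 to 0.381 in DNPT rats and 0.319 to 0.390 in vehicle rats. All 6 endothelial markers were measured, with a median of 0.10 and a sum of 75.7 to 92.4 in DNPT rats and 71.9 to 75.5 in vehicle rats. The part of these cells in the changes of the Fc receptor and macrophage genes was not tested.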

How the data were processed

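Renal cortex of 3 DNPT rats and 3 vehicle rats, described as biological replicates in the series design, was measured on 1-colour Agilent arrays. Per the file headers, the deposited scanner files hold a linear intensity for each spot, and the processed intensity used here is the authors' background-corrected value. Agilent Feature Extraction 10.7 was used, per the submitters' processing notes. The deposited value table proved to be a linear ratio, the processed intensity of an array over 1 constant (100% of probes matched within 0.5%), with no centring, the same direction and column medians of 0.112 to 0.116. The step by which the authors made it was not given in any of the sources used here.

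Control spots and 113 values marked as outliers by the scanner software were dropped and saturated spots kept. Log2 processed intensity minus the 75th percentile of the array was analysed. Probe accessions were looked up, ignoring versions, in a RefSeq table of GRCr8, which named 28206 of 61537 probes with 1 gene and 33331 with none, and 0 with several. The array design uses an older assembly, so probe coordinates are not given. Probes well above background on 3 or more arrays with at least 2 values in each group (44305) were retained. The brightest of them stood for a gene and unnamed probes stood alone, giving 34915 features, 12687 of them named genes.

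DNPT was compared with vehicle in limma 3.58.1 (R 4.3.3), two-sided, no covariates, Benjamini-Hochberg over all features at 0.05. SEs of second probes come from the same model over all probes. With 3 against 3 rats, the smallest p an exact permutation test allows is 0.1. The 10 genes and all lists were chosen with earlier results of these data known. All 10 genes are named, and from each list the genes called or else the 2 with the largest absolute change that were well above background on 6 arrays, except where a choice after seeing values is stated. Csf1, Il34 and the T cell genes Cd2, Cd3d, Cd3e and Cd5 were also named outside this rule, with their values known. So were Marco and Vsig4, and Fcrla and Fcgr2al1 as genes of the cluster. The 5 genes most alike in pattern were sought over 11819 named genes by root mean square difference. The 18 alternatives covered normalization, background correction, filters, probe rule, variance model, slide, replicate number and each sample left out. The planned normexp correction (offset 50) used the median spot signal, the files read holding no mean signal. A marker list is not reported here. The fit was tested on simulated data. Python 3.11.15, pandas 2.3.3 and matplotlib 3.10.9 made tables and plots.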

Additional observations from a re-analysis of the deposited data

How the results depend on the processing

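Over 18 alternatives, 157 of 162 values of the 9 measured genes were negative, but the alternatives were not separate checks. The intensity trend and the replicate block cannot move a change, and the other filters kept the same probes of these genes. The value table holds the same intensities over 1 constant per array, and slide as a block repeats slide 1 alone. All 5 values that turned belonged to Mrc1. Its change was 0.019 with normexp, 0.33 on slide 1 alone and with slide as a block, and -0.24 to 0.13 with 1 sample left out. Between 8 and 10 of the genes lay lower in DNPT rats, the 10th being the dim Cd163 without a filter. Their median (-0.26) was -0.41 with slide as a block and on slide 1 alone, both of which rest on DNPT replicate 1, and the median of other macrophage genes (-0.23) was -0.44 there and -0.12 without DNPT replicate 1. The Fc receptor signalling median (-0.12) ranged from -0.20 to -0.068 with 1 sample left out. Limma called 0 features at an adjusted p under 0.05, 5 with normexp, 1 with slide blocked and 0 to 619 with 1 sample left out, 619 without DNPT replicate 1 and 3 without vehicle replicate 2. The unadjusted p was under 0.05 for 4219 features, 8756 without a filter, 6357 with array weights, 2389 with slide blocked, 2709 on slide 1 alone and 2541 to 7313 with 1 sample left out. Without vehicle replicates 1 and 2 the counts were 2583 and 2541. Features without overlap numbered 7066, 12929 without a filter, 19096 on slide 1 alone and 9694 to 14964 with 1 sample left out. The replicate block left 0 calls and 3090 unadjusted ones, while its balanced layout fixes the changes of the 9 genes in advance. Same-numbered samples did not deviate together (correlations of -0.18, -0.06 and -0.18), so the numbers were not taken as pairs. The Fcgr2b change (-0.61) was smaller in size with normexp (-0.42) and with the mean of its probes (-0.50). Dim probes limit Cd163 and the second Mrc1 probe.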

Other observations

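Genes whose centred log2 signals over the 6 arrays lay closest to those of Fcgr2b were Glcci1, Leo1, Ncf1, Sult1c2 and Gdap1, with root mean square differences of 0.0659, 0.0687, 0.0720, 0.0735 and 0.0739. Glcci1, Leo1 and Gdap1 had changes of -0.61 (SE 0.11), -0.63 (SE 0.11) and -0.72 (SE 0.10). Ncf1 and Sult1c2 are described further, a choice made with their values known. Ncf1, which encodes a cytosolic subunit of the phagocyte NADPH oxidase, had signals of 0.82, 0.62 and 0.46 in DNPT rats. In vehicle rats they were 1.33, 1.33 and 1.16, and the change was -0.64 (SE 0.12, limma adjusted p = 0.294). Sult1c2, a sulfotransferase, had signals of 6.56, 6.68 and 6.37 in DNPT rats and 7.01, 7.20 and 7.12 in vehicle rats, with a change of -0.57 (SE 0.11, limma adjusted p = 0.294). In both Ncf1 and Sult1c2 every DNPT rat lay below every vehicle rat, which their choice for likeness to Fcgr2b makes likely. Closest to the mean of the 9 measured genes were Vldlr, Znrf2, Mzf1, Sult1c2a and Qrfprl, with differences of 0.0369 to 0.0495. Vldlr, a lipoprotein receptor, had signals of -2.47, -2.36 and -2.53 in DNPT rats and -2.05, -2.18 and -2.24 in vehicle rats. These genes were picked from 11819 for their likeness over 6 arrays, so the closeness is a description.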
